A study of Capsicum annuum and Capsicum annuum
Solanum lycopersicum with 48 samples.

Results

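The genes followed here are 5 pepper transcription factor (TF) genes that were placed in the gene regulatory network of the pepper self-graft, read in the heterografts of pepper with tomato. They are the ethylene response factor (ERF) genes CA01g01830 and CA01g01880, MYC2 (CA01g00280), the NGATHA-like gene NGAL1-like (CA01g00060) and the homeobox-leucine zipper gene HD-ZIP14 (CA10g19210). They were chosen by name from the study's network, with earlier results of these data known. They are 5 of 30088 pepper genes and of 63692 genes of both species in the heterograft table. All 5 identifiers were found, and none stood in one of the 148 rows that merge several pepper identifiers. By their identifiers 4 of the 5 lie on chromosome 1, among its 188 lowest-numbered measured genes, which are 0.625% of the pepper genes.

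Messenger RNA of graft junctions was sequenced from seedlings of pepper (Capsicum annuum var. Big Dipper) and of tomato (Solanum lycopersicum, the variety M82), which were wedge grafted. A junction held 1 cm of stem on each side of the cut. The grafts used here, written as scion:stock, are the pepper self-graft (pepper:pepper), pepper:tomato, in which pepper is the scion, and tomato:pepper, in which pepper is the stock. They were sampled 1, 3 and 5 days after grafting (DAG), and each of the 9 groups had 4 samples, each the junction of a separate plant, so that 36 of the 48 samples of the series were used. All plants were kept in darkness after grafting up to 3 DAG, so that the change from 3 to 5 DAG also spans the return to light, in every graft alike. A junction is a mixture of wounded stem tissues, and in a heterograft it is pepper on one side of the cut and tomato on the other.

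MYC2 is a basic helix-loop-helix TF and the central activator of jasmonate responses, which wounding sets off within hours. ERFs bind GCC-box promoters and relay ethylene, jasmonate and wound signals, often in families of neighbouring copies. NGATHA-like proteins are B3-domain TFs that in Arabidopsis thaliana limit growth of leaf margins and cotyledons, and HD-ZIP class TFs bind DNA as dimers and act in vascular and shade responses, with HAT14 as the A. thaliana counterpart named for HD-ZIP14. In a healing graft, wound signalling comes first, callus follows, and vascular strands are rebuilt last.

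Expression is given as FPKM, fragments per kilobase of transcript and 1000000 fragments, with 1 value per group pooled over its 4 samples. No spread between plants is therefore known for any value below, no test was made, and neighbours in an order of levels cannot be separated by an error. A gene is called changed where log2((later FPKM + 1)/(earlier FPKM + 1)) is 1 or more in size, and this log2 scale understates the change of genes near or under 1 FPKM. The depth of the libraries is unknown, since the tables hold no counts. The heterograft FPKM covers the genes of both species in 1 scaling, and the self-graft table was made separately, so levels of the self-graft stand beside those of heterografts only as an orientation. As a second scale, each pepper gene was therefore scaled so that the pepper genes of its group sum to 1000000 (pepper-scaled FPKM). Where 3 values of a graft follow each other, they belong to 1, 3 and 5 DAG in that order.

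The heterograft groups at 3 DAG stand apart. Pepper genes held 82.1%, 48.3% and 76.9% of FPKM in pepper:tomato, and 40.5%, 70.3% and 50.8% in tomato:pepper. At 3 DAG alone the order of the heterografts in summed FPKM was thus turned around, and the cause was not tested. Other measures were nearly equal at 3 DAG in pepper:tomato and tomato:pepper. Pepper genes at 1 FPKM or more were 46.9% and 47.3%, and the median pepper gene had 0.666 and 0.678 FPKM. Where a share of pepper RNA is named below, this share of summed FPKM is meant. Fold changes and medians of the heterografts that use 3 DAG are given as labelled, and the main ones also with the 3 DAG values of both heterografts exchanged, while comparisons of 5 with 1 DAG do not use these groups. In deposited FPKM of a mixed junction, less pepper tissue and less RNA of a gene per pepper cell cannot be told apart. Pepper-scaled FPKM does not change with the amount of pepper RNA alone, but on this scale too, fewer cells of the type that expresses a gene and less of its RNA per cell cannot be told apart.

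**Figure D1:**
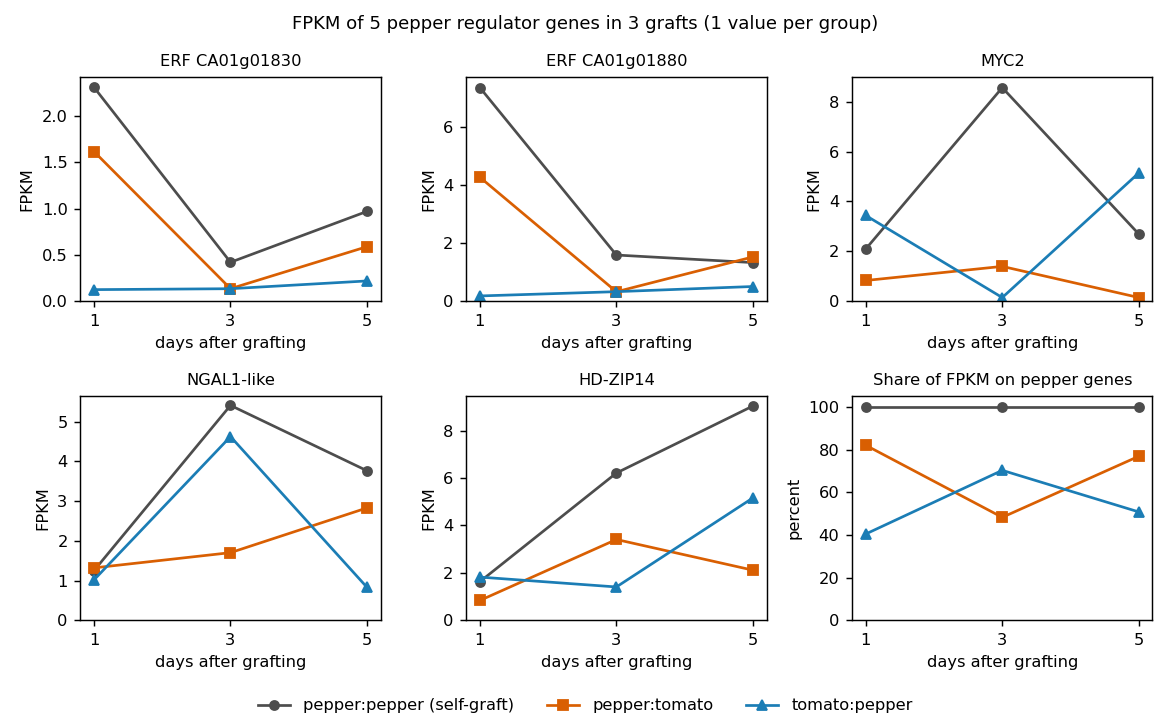
FPKM of the 5 genes by days after grafting in the pepper self-graft (grey circles), pepper:tomato (orange squares) and tomato:pepper (blue triangles), with the share of FPKM on pepper genes in the last panel; each point is 1 pooled value of 4 samples and has no error bar. The ERF genes started high in the self-graft and in pepper:tomato and stayed at 0.508 FPKM or less in tomato:pepper, and MYC2 had its highest value at 3 DAG in the self-graft and, within tomato:pepper, its lowest.

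The ERF pair was high at 1 DAG and fell by 3 DAG in the self-graft and in pepper:tomato, and it was low throughout in tomato:pepper. CA01g01880, the more abundant gene of the pair, had 7.37, 1.59 and 1.33 FPKM in the self-graft, 4.28, 0.327 and 1.53 in pepper:tomato, and 0.183, 0.330 and 0.508 in tomato:pepper. CA01g01830 had 2.31, 0.420 and 0.969 FPKM in the self-graft, 1.62, 0.136 and 0.589 in pepper:tomato, and 0.125, 0.135 and 0.219 in tomato:pepper. Each ERF gene was highest in the self-graft at 1 DAG, next in pepper:tomato at 1 DAG, and lowest in tomato:pepper at 1 DAG, where the fall from 1 DAG thus had no high value to start from.

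The fall between 1 and 3 DAG was of like size in the self-graft and in pepper:tomato. For CA01g01880 the log2 fold change at 3 over 1 DAG was -1.69 in the self-graft and -1.99 in pepper:tomato, and for CA01g01830 it was -1.22 and -1.20. In tomato:pepper the values were 0.17 and 0.01. At 5 over 1 DAG, CA01g01880 was still lower in the self-graft (-1.84) and in pepper:tomato (-1.06), while CA01g01830 stayed within the threshold in both (-0.75 and -0.72). At 5 over 3 DAG neither gene passed the threshold in any graft, and the value furthest from 0 was 0.93 for CA01g01880 in pepper:tomato. The 3 DAG values of both heterografts were nearly equal for each ERF gene, so exchanging them left these results as they were (-1.99 and -1.20 in pepper:tomato, 0.17 and 0.01 in tomato:pepper).

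Scaling to pepper RNA brought the self-graft and pepper:tomato closer for the ERF pair at 1 and 3 DAG and left tomato:pepper low at 1 DAG. In pepper-scaled FPKM, CA01g01880 had 5.46, 0.675 and 0.840 in the self-graft, 4.31, 0.395 and 1.62 in pepper:tomato, and 0.321, 0.271 and 0.886 in tomato:pepper. CA01g01830 had 1.71, 0.178 and 0.611 in the self-graft, 1.63, 0.164 and 0.623 in pepper:tomato, and 0.220, 0.111 and 0.382 in tomato:pepper. On this scale tomato:pepper was 13.4-fold lower than pepper:tomato for CA01g01880 at 1 DAG and 7.41-fold lower for CA01g01830. At 5 DAG these ratios were 1.82 and 1.63. Both genes stayed under 1 FPKM in each tomato:pepper group, so neither counts among the expressed genes there.

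CA01g01880 exceeded CA01g01830 in all 9 groups. The FPKM of CA01g01880 was 3.19, 3.79 and 1.37 times that of CA01g01830 in the self-graft, 2.65, 2.41 and 2.60 times in pepper:tomato, and 1.46, 2.44 and 2.32 times in tomato:pepper. Such a ratio within a group does not depend on the share of pepper RNA. Whether reads were shared between the ERF copies, or with their tomato counterparts in the joined genome, was not tested.

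MYC2, the jasmonate regulator, was highest at 3 DAG in the self-graft and in pepper:tomato and lowest at 3 DAG in tomato:pepper, as labelled. It had 2.09, 8.56 and 2.69 FPKM in the self-graft, a peak at 3 DAG. In pepper:tomato it was low, with 0.831, 1.40 and 0.148 FPKM. In tomato:pepper it had 3.44, 0.147 and 5.14 FPKM, with its lowest value at the time point of the self-graft's peak.

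At 3 over 1 DAG the log2 fold change of MYC2 was 1.63 in the self-graft, 0.39 in pepper:tomato and -1.95 in tomato:pepper. At 5 over 3 DAG it was -1.37 in the self-graft, -1.06 in pepper:tomato and 2.42 in tomato:pepper. MYC2 thus went past the threshold in opposite directions in the self-graft and in tomato:pepper, and no test of this difference can be made on pooled values. Both rest on the groups at 3 DAG. With these exchanged, MYC2 had 0.831, 0.147 and 0.148 FPKM in pepper:tomato and 3.44, 1.40 and 5.14 in tomato:pepper. The log2 fold changes from 1 to 3 DAG were then -0.67 and -0.89, and those from 3 to 5 DAG 0.00 and 1.36. The peak of the self-graft at 3 DAG was in that case seen in neither heterograft.

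Apart from 3 DAG, MYC2 was higher in tomato:pepper than in pepper:tomato. At 1 DAG its FPKM was 4.13-fold higher there, and at 5 DAG 34.7-fold higher, although tomato:pepper had the smaller share of pepper RNA at both. These ratios divide by 0.831 and 0.148 FPKM in pepper:tomato, both under 1 FPKM, so their size is uncertain. With the pseudocount of 1 FPKM the log2 ratios were 1.28 and 2.42. In pepper-scaled FPKM, MYC2 had 1.55, 3.63 and 1.70 in the self-graft, 0.839, 1.68 and 0.157 in pepper:tomato, and 6.03, 0.121 and 8.97 in tomato:pepper, so that both of its highest values on this scale were in tomato:pepper. Within the pepper genes of its group, MYC2 stood above 67.0% of genes at 1 DAG and 67.8% at 5 DAG in tomato:pepper, against 48.0% and 50.5% in the self-graft and 45.0% and 37.9% in pepper:tomato.

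The NGAL1-like gene, a hub of the network like MYC2, rose from 1 to 3 DAG in the self-graft and in tomato:pepper. It had 1.25, 5.41 and 3.76 FPKM in the self-graft, 1.32, 1.70 and 2.83 in pepper:tomato, and 1.02, 4.62 and 0.831 in tomato:pepper. The log2 fold change at 3 over 1 DAG was 1.51 in the self-graft, 0.22 in pepper:tomato and 1.48 in tomato:pepper. Pepper RNA moved the same way as the gene in tomato:pepper, from 40.5% to 70.3% of FPKM, and in pepper-scaled FPKM the change there was 0.78.

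With 3 DAG exchanged, the NGAL1-like gene had its peak at 3 DAG in pepper:tomato (1.32, 4.62 and 2.83 FPKM), with a log2 fold change of 1.28, and not in tomato:pepper (1.02, 1.70 and 0.831), where it was 0.42. At 5 over 1 DAG, the gene had risen in the self-graft (1.08), was at 0.72 in pepper:tomato and at -0.14 in tomato:pepper. At 5 over 3 DAG it fell by 1.62 on the log2 scale in tomato:pepper, a value that was -0.56 after the exchange. In pepper-scaled FPKM its levels were 0.927, 2.29 and 2.37 in the self-graft, 1.33, 2.06 and 2.99 in pepper:tomato, and 1.79, 3.79 and 1.45 in tomato:pepper. As labelled, the gene was thus higher at each later time point in the self-graft and in pepper:tomato on this scale. With the exchange, pepper:tomato had 3.79 at 3 DAG and was highest there.

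HD-ZIP14 has no targets of its own in the study's network and stands there under MYB86, a MYB TF linked to lignification of xylem, and LBD4, a lateral organ boundary TF. It was higher at each later time point in the self-graft, with 1.63, 6.21 and 9.04 FPKM. In pepper:tomato it had 0.839, 3.41 and 2.12 FPKM, and in tomato:pepper 1.83, 1.41 and 5.16. It was higher at 5 than at 1 DAG in all 3 grafts, by log2 fold changes of 1.93, 0.76 and 1.13 in the self-graft, pepper:tomato and tomato:pepper, of which the value in pepper:tomato stays within the threshold.

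At 3 over 1 DAG, HD-ZIP14 rose by 1.46 in the self-graft and 1.26 in pepper:tomato, and was at -0.23 in tomato:pepper. Between 3 and 5 DAG it rose by 1.35 in tomato:pepper, a value that was 0.48 after the exchange. With 3 DAG exchanged, it had 0.839, 1.41 and 2.12 FPKM in pepper:tomato and 1.83, 3.41 and 5.16 in tomato:pepper, an order of time points like that of the self-graft in both, with log2 fold changes at 3 over 1 DAG of 0.39 and 0.64. In pepper-scaled FPKM, HD-ZIP14 had 1.21, 2.63 and 5.70 in the self-graft, 0.846, 4.12 and 2.24 in pepper:tomato, and 3.20, 1.16 and 9.01 in tomato:pepper. As for MYC2, its highest value on this scale was in tomato:pepper at 5 DAG.

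**Figure D2:**
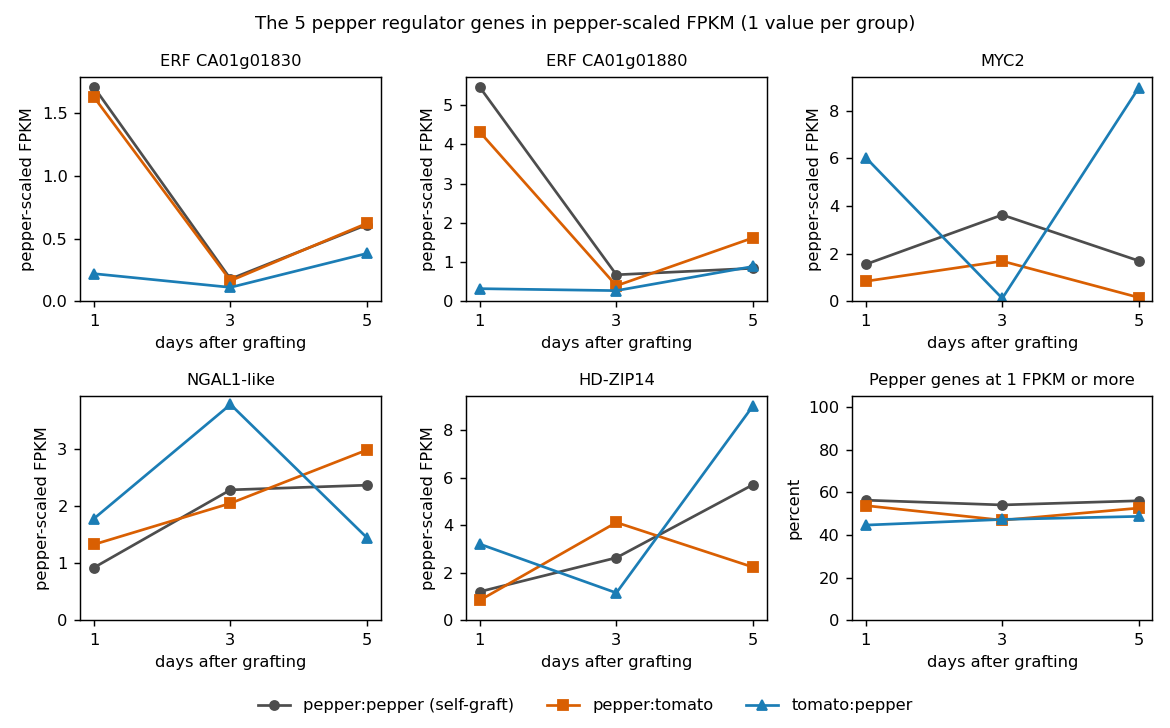
The 5 genes in pepper-scaled FPKM by days after grafting, with the same colours and markers, and in the last panel the percentage of pepper genes at 1 FPKM or more in each group. On this scale the self-graft and pepper:tomato lie close for CA01g01830 (1.71 and 1.63 at 1 DAG) and less so for CA01g01880 (5.46 and 4.31 at 1 DAG, 0.840 and 1.62 at 5 DAG), while MYC2 and HD-ZIP14 reach 8.97 and 9.01 in tomato:pepper at 5 DAG.

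The scaling also touches the self-graft. Summed pepper FPKM was 1350390, 2360110 and 1585780 at 1, 3 and 5 DAG there, and dividing by it moves the median log2 fold change of all expressed pepper genes at 3 over 1 DAG from 0.03 to -0.61. On that scale MYC2, NGAL1-like and HD-ZIP14 were at 0.86, 0.77 and 0.72 at 3 over 1 DAG in the self-graft, under the threshold, and the ERF genes at -1.95 (CA01g01880) and -1.20 (CA01g01830). Centred on the median of all expressed pepper genes instead, the 3 rises were 1.60, 1.48 and 1.42. In the heterografts the median pepper gene itself moved, by -0.84, -0.18 and 0.66 at 3 over 1, 5 over 1 and 5 over 3 DAG in pepper:tomato, and by 0.67, 0.21 and -0.48 in tomato:pepper. Relative to these medians, at 3 over 1 DAG MYC2 was at 1.23 in pepper:tomato and -2.62 in tomato:pepper, NGAL1-like at 1.06 and 0.81, HD-ZIP14 at 2.11 and -0.90, CA01g01880 at -1.15 and -0.50, and CA01g01830 at -0.36 and -0.66.

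In the self-graft, all 5 genes were past the threshold at 3 over 1 DAG, 3 at 5 over 1 DAG and 1 at 5 over 3 DAG, where 34.8%, 17.2% and 10.6% of 17806 expressed pepper genes were. The self-graft was where the study inferred the network from genes that changed, so these counts only describe the members. In pepper:tomato, 3, 1 and 1 of the 5 were past it in the same comparisons, beside 50.3%, 12.6% and 40.8% of 16915 expressed genes. In tomato:pepper the members past it numbered 2, 1 and 3, beside 36.3%, 17.3% and 41.8% of 15743 genes, and 3 of the 5 members reached 1 FPKM there.

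The members past the threshold in the self-graft were then followed into the heterografts. At 3 over 1 DAG, 3 of the 5 (both ERF genes and HD-ZIP14) were past the threshold the same way in pepper:tomato, where 61.2% of the 5960 genes past it in the self-graft were. All 5 had the same sign there, as 84.9% of these 5960 genes had. In tomato:pepper 1 of the 5 (NGAL1-like) was past the threshold the same way, and MYC2 was past it the opposite way. The matching share there, 34.5% of 5213 genes, covers genes expressed in both grafts, which leaves out the ERF genes, so that it stands beside 1 of 3 members. At 5 over 1 DAG, 1 of 3 members was past it the same way in pepper:tomato (CA01g01880), beside 35.1% of genes, and 1 of the 2 expressed in both grafts in tomato:pepper (HD-ZIP14), beside 35.9%. At 5 over 3 DAG the only member past it in the self-graft was MYC2, which went the same way in pepper:tomato and the opposite way in tomato:pepper, beside 41% and 57.5% of genes going the same way. At 3 over 1 and 5 over 1 DAG these shares of members in pepper:tomato are near those of all such genes, and from 1 member at 5 over 3 DAG nothing can be read. With 3 DAG exchanged, 3 members followed the self-graft at 3 over 1 DAG in pepper:tomato (the ERF genes and NGAL1-like) and 0 in tomato:pepper.

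**Figure D3:**
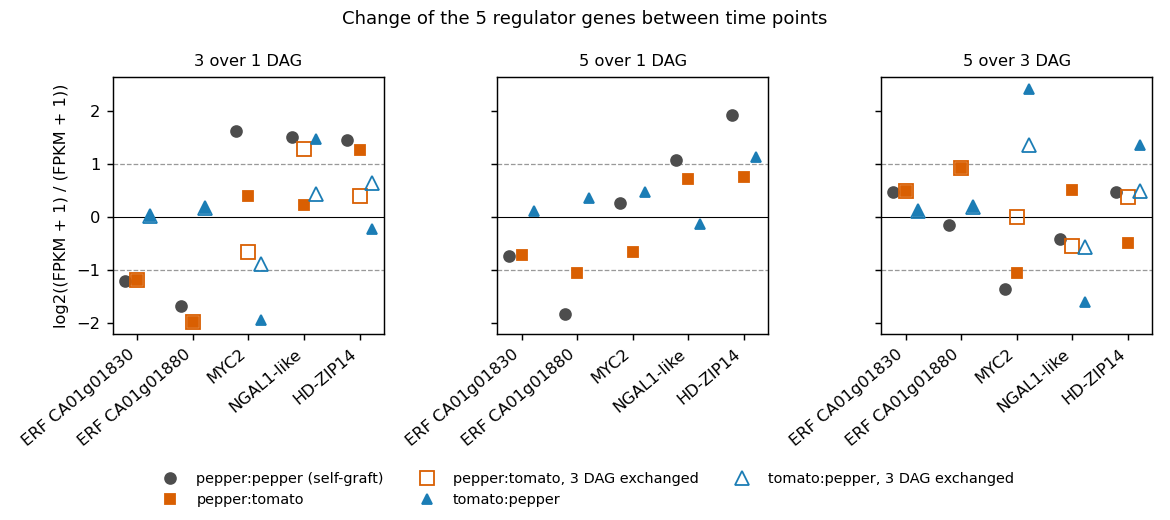
Log2 fold change of FPKM + 1 of each gene at 3 over 1, 5 over 1 and 5 over 3 DAG in the self-graft (grey circles), pepper:tomato (filled orange squares) and tomato:pepper (filled blue triangles); open symbols give the heterografts with 3 DAG exchanged and dashed lines the threshold of 1 in size. The open and filled symbols of the ERF genes coincide, while MYC2 in tomato:pepper moves from -1.95 to -0.89 at 3 over 1 DAG and from 2.42 to 1.36 at 5 over 3 DAG.

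Set against each other within their table, the heterografts were past 1 in size for the ERF pair at 1 DAG, NGAL1-like at 3 and 5 DAG and MYC2 at all 3 time points. At 1 and 5 DAG the shares of members past 1 are near those of all genes. At 1 DAG, 3 members were past 1 in size on the log2 scale of tomato:pepper over pepper:tomato, CA01g01830 (-1.22), CA01g01880 (-2.16) and MYC2 (1.28), beside 54.6% of 17295 genes, whose median was -1.05. At 3 DAG they were MYC2 (-1.06) and NGAL1-like (1.06), beside 25.5% of genes with a median of 0.35. At 5 DAG they were again MYC2 (2.42) and NGAL1-like (-1.06), beside 44.1% and a median of -0.73. A lower ratio than that of NGAL1-like was found for 33.9% of genes at 5 DAG.

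Read against the shift of all genes, MYC2 stood at the upper end at 1 and 5 DAG. At 1 DAG 1.58% and at 5 DAG 1.46% of the 17295 genes had a higher log2 ratio of tomato:pepper over pepper:tomato than MYC2. For HD-ZIP14 (0.62 and 0.98) these were 4.35% and 7.35%. At 3 DAG as labelled, 92.9% of genes had a higher ratio than MYC2 and 91.2% a higher one than HD-ZIP14. A lower ratio at 1 DAG than that of CA01g01880 was found for 12.2% of genes, and than that of CA01g01830 for 42.3%. CA01g01830 had 1.62 FPKM in pepper:tomato at 1 DAG, so the pseudocount of 1 FPKM limits how low its ratio can go. Its place among all genes therefore cannot show how far it differed. In pepper-scaled FPKM, 4 members were past 1 at 1 DAG, with HD-ZIP14 at 1.19 beside the ERF genes (-2.01 for CA01g01880, -1.11 for CA01g01830) and MYC2 (1.94), where 36.2% of genes were and the median was -0.43. At 5 DAG on that scale MYC2 was at 3.11 and HD-ZIP14 at 1.63, while NGAL1-like, at 0.65 and -0.70 at 3 and 5 DAG, was no longer past 1. At 3 DAG MYC2 (-1.26) and HD-ZIP14 (-1.25) were lower in tomato:pepper, and with 3 DAG exchanged both were higher there at each of the 3 time points.

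HD-ZIP14 had its highest value at the same time point as MYB86 and LBD4 in each heterograft. MYB86 had 0.490, 4.97 and 5.52 FPKM in the self-graft, 0.0968, 2.07 and 1.04 in pepper:tomato, and 0.528, 0.0285 and 2.81 in tomato:pepper. LBD4 had 5.70, 57.3 and 36.6 FPKM in the self-graft, 0.955, 37.4 and 11.0 in pepper:tomato, and 8.22, 7.28 and 39.1 in tomato:pepper. As labelled, both were highest at 3 DAG in pepper:tomato and at 5 DAG in tomato:pepper, like HD-ZIP14. With the exchange, pepper:tomato had 0.0968, 0.0285 and 1.04 FPKM of MYB86 and 0.955, 7.28 and 11.0 of LBD4, and all 3 genes were highest there at 5 DAG. Over the 9 group values of log2(pepper-scaled FPKM + 1), Pearson's r with HD-ZIP14 was 0.95 for MYB86 and 0.91 for LBD4, and 0.95 and 0.93 over the 7 groups without the heterografts at 3 DAG. The points of such a correlation, here and below, share the scaling of their table. They also include the self-graft groups, from which the study inferred the edges of the network. For both reasons r is given as a description.

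**Figure D4:**
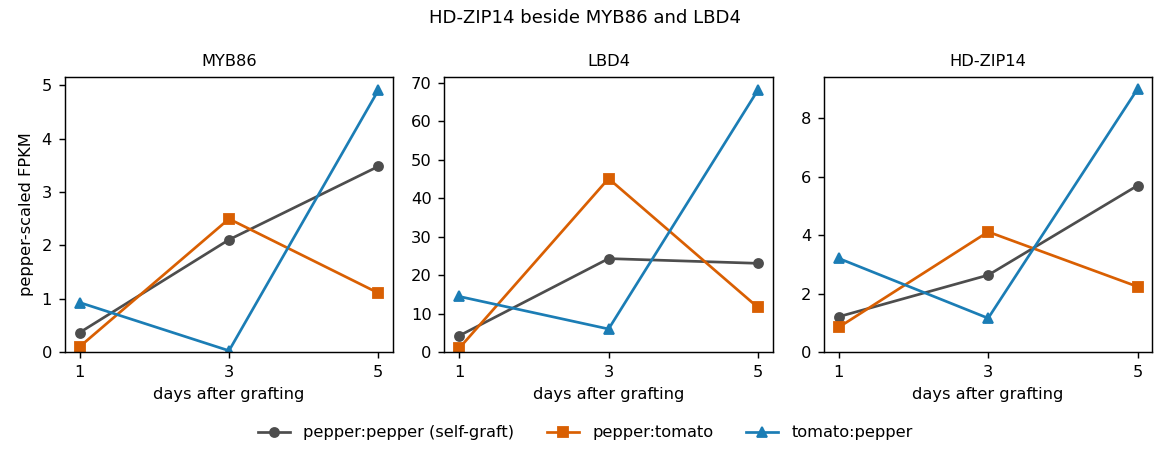
MYB86, LBD4 and HD-ZIP14 in pepper-scaled FPKM by days after grafting in the self-graft (grey circles), pepper:tomato (orange squares) and tomato:pepper (blue triangles); each point is 1 pooled value. As labelled, all 3 genes are highest at 3 DAG in pepper:tomato and at 5 DAG in tomato:pepper, where LBD4 reaches 68.2, MYB86 4.91 and HD-ZIP14 9.01; with 3 DAG exchanged they are highest at 5 DAG in both.

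For the other edges into the members, r was lower. MYC2 stands under LBD18, a TF of callus formation, with r = 0.74 over the 9 groups and 0.79 over the 7. LBD18 had 2.23, 9.67 and 5.27 FPKM in the self-graft, 0.368, 4.53 and 0.634 in pepper:tomato, and 2.23, 0 (as listed) and 1.75 in tomato:pepper. Both MYC2 and LBD18 thus had their lowest tomato:pepper value at 3 DAG as labelled. With the exchange LBD18 had 2.23, 4.53 and 1.75 FPKM there and was highest at 3 DAG, where MYC2 was lowest. The NGAL1-like gene, which stands under MYB86 and LBD4 as HD-ZIP14 does, had r of -0.04 and 0.15 with them over 9 groups, 0.37 and 0.39 over the 7, and 0.32 and 0.33 on deposited FPKM.

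Among the members, the ERF genes had r = 0.98 with each other, and MYC2 and HD-ZIP14 had 0.68. The NGAL1-like gene had -0.49 with MYC2 and -0.66 with CA01g01880, values that were -0.08 and -0.11 on deposited FPKM, and -0.27 and -0.61 without the heterografts at 3 DAG. XTH38, a xyloglucan endotransglucosylase/hydrolase gene of cell wall remodelling placed under the ERF pair, had 50.5, 6.06 and 24.3 FPKM in the self-graft, 55.2, 6.14 and 12.6 in pepper:tomato, and 6.23, 3.82 and 4.79 in tomato:pepper. It was thus high at 1 DAG in the grafts in which the ERF genes were, with r of 0.93 (CA01g01830) and 0.85 (CA01g01880). Such values were common, since r passed 0.9 for 15.3% of 17998 pepper genes with CA01g01830 and for 10.7% with CA01g01880. With NGAL1-like, XTH38 had r of -0.68 (-0.24 on deposited FPKM). XTH22, a gene of the same family, had 0.295, 2.51 and 3.56 FPKM in tomato:pepper and r of 0.41 with NGAL1-like (0.67 on deposited FPKM). LBD25, another hub of the network, had 16.9, 8.26 and 45.7 FPKM in the self-graft, 10.2, 2.87 and 12.5 in pepper:tomato and 0.794, 7.34 and 8.26 in tomato:pepper, and its r with each member was 0.53 or less.

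The targets that the network draws from the ERF pair moved with it in pepper:tomato and were low from the start in tomato:pepper. The pair shares 195 targets besides its own members, of which 193 were measured. Their median in pepper-scaled FPKM was 8.34, 0.811 and 2.43 in the self-graft, 7.94, 0.981 and 4.44 in pepper:tomato, and 1.21, 0.768 and 1.70 in tomato:pepper. Over all pepper genes the medians were 2.10, 0.792 and 1.59 in the self-graft, 1.86, 0.803 and 1.59 in pepper:tomato, and 0.846, 0.556 and 1.47 in tomato:pepper. All target lists were chosen by the study on the self-graft samples, so their direction in the self-graft is not independent evidence. Genes chosen in this way can also move alike in a heterograft without a link to the regulator. Of genes past the threshold in the self-graft, rises and falls together, 61.2% went the same way in pepper:tomato at 3 over 1 DAG and 35.1% at 5 over 1 DAG. In tomato:pepper these shares were 34.5% and 35.9%. Whether targets differ from such genes of the same direction was not tested.

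At 3 over 1 DAG, 182 of the 186 ERF targets expressed in pepper:tomato fell and 0 rose, with a median log2 fold change of -2.30 beside -0.84 over all expressed pepper genes, of which 44.2% fell. In the self-graft 190 of 193 fell, with a median of -2.00. In tomato:pepper 119 of the 193 reached 1 FPKM, and of these 14 fell and 15 rose (median 0.21 beside 0.67), where 4.58% of all expressed genes fell and 31.7% rose. Between 3 and 5 DAG in pepper:tomato, 133 of the 186 rose again (median 1.42 beside 0.66), as 35.7% of all expressed genes did. With 3 DAG exchanged, the medians at 3 over 1 DAG were -2.17 and 0.06 in pepper:tomato and tomato:pepper. At 1 DAG, 184 of the 193 targets had a lower pepper-scaled level in tomato:pepper than in pepper:tomato, as both ERF genes had, with a median log2 ratio of -2.01. Of all 30088 pepper genes, those listed at 0 included, 15269 were lower there, with a median of -0.01. Genes at 0 in both heterografts cannot be lower in either. Over the 17295 genes that reached 1 FPKM in a heterograft the median was -0.43.

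Targets of MYC2 rose from 1 to 3 DAG in both heterografts, also where MYC2 itself fell. Of the 97 targets, 94 rose and 0 fell in the self-graft (median log2 fold change 2.30), where 16.3% of all expressed genes rose and 18.5% fell. In pepper:tomato 53 of 96 expressed targets rose and 5 fell, with a median of 1.12 beside -0.84 over all genes, and in tomato:pepper 66 of 96 rose and 12 fell, with a median of 1.43 beside 0.67, where MYC2 was at -1.95. Of all expressed genes 6.10% rose and 44.2% fell in pepper:tomato, and 31.7% rose and 4.58% fell in tomato:pepper. Of genes past the threshold in the self-graft, whichever way, 61.2% and 34.5% went the same way in pepper:tomato and tomato:pepper. After exchanging 3 DAG, the medians were 1.84 and 0.85, beside -0.48 and 0.28 over all genes. In pepper-scaled FPKM the median of tomato:pepper as labelled was 0.48 beside -0.22. At 5 over 1 DAG, 39 rose and 4 fell in pepper:tomato (median 0.76 beside -0.18), and 19 rose and 18 fell in tomato:pepper (0.11 beside 0.21), while of all genes 4.75% rose and 7.89% fell in the former and 12.6% rose and 4.68% fell in the latter. MYC2 itself was at -0.67 and 0.47 in these comparisons. Between 3 and 5 DAG, 57 of 96 targets fell in tomato:pepper (median -1.67 beside -0.48), where 28.8% of all genes fell and MYC2 was at 2.42. Of genes past the threshold in the self-graft in this comparison, 57.5% went the same way in tomato:pepper. With the exchange the median was -0.78 beside -0.03 and MYC2 at 1.36, and in pepper-scaled FPKM as labelled the median was -0.69 beside 0.46 and MYC2 at 3.15.

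Most targets of the NGAL1-like gene were higher at 5 than at 1 DAG in both heterografts, as in the self-graft, on which they were chosen. This comparison does not use the values at 3 DAG. Of the 77 targets, 76 rose and 1 fell in the self-graft at 5 over 1 DAG (median 2.15), 43 rose and 1 fell in pepper:tomato (median 1.14 beside -0.18 over all genes), and 50 rose and 3 fell in tomato:pepper (1.42 beside 0.21), where NGAL1-like itself was at -0.14. Of all expressed genes 8.65%, 4.75% and 12.6% rose in these grafts. Of genes past the threshold in the self-graft at 5 over 1 DAG, whichever way, 35.1% and 35.9% went the same way in pepper:tomato and tomato:pepper. From 1 to 3 DAG, 49 rose and 1 fell in pepper:tomato (1.67 beside -0.84), and 40 rose and 10 fell in tomato:pepper (1.19 beside 0.67), where 6.10% and 31.7% of all genes rose. After the exchange these medians were 0.75 and 1.44, and in pepper-scaled FPKM as labelled the latter was 0.13. Their median level in pepper-scaled FPKM was 4.93, 18.2 and 24.9 in the self-graft, 4.44, 21.7 and 14.0 in pepper:tomato, and 8.16, 7.92 and 36.9 in tomato:pepper. The MYC2 and NGAL1-like lists share 6 genes, 6.19% of the former and 7.79% of the latter, and neither shares a gene with the ERF targets.

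**Figure D5:**
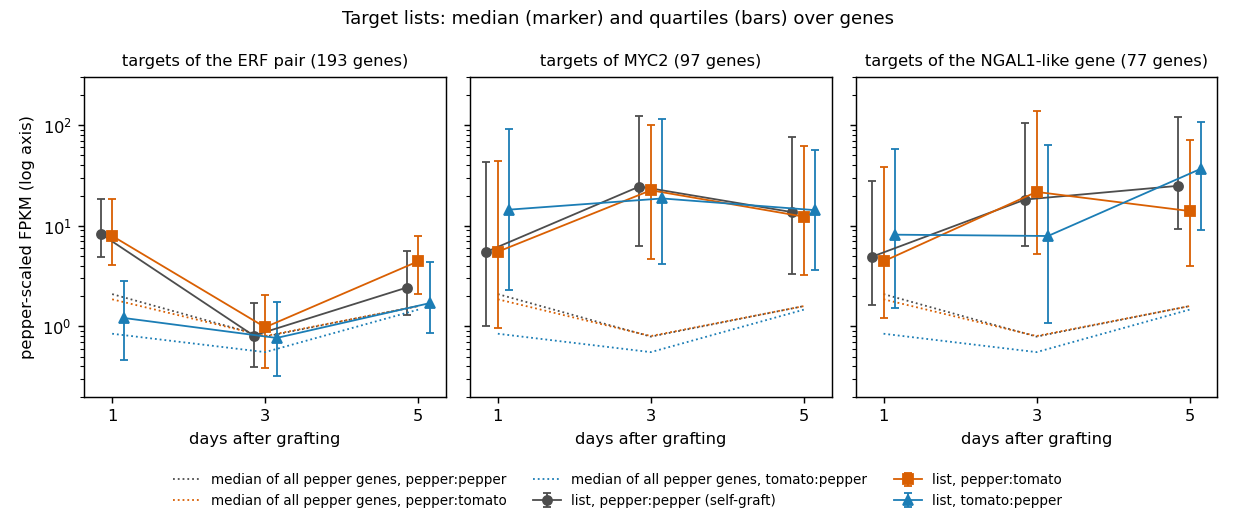
Median (markers) and quartiles (bars) over the targets of the ERF pair, MYC2 and the NGAL1-like gene, in pepper-scaled FPKM on a log axis, by days after grafting in the 3 grafts, with the median of all pepper genes as dotted lines. The ERF targets start at 8.34 and 7.94 in the self-graft and pepper:tomato and at 1.21 in tomato:pepper, and the MYC2 targets lie at 24.6, 22.5 and 18.7 at 3 DAG in the self-graft, pepper:tomato and tomato:pepper.

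Single targets moved over a wide range of FPKM, and several did so in opposite directions in the heterografts at 3 DAG. No function is given for these identifiers in the files. CA03g14140, an ERF target, had 95.5, 18.7 and 41.4 FPKM in the self-graft, 119, 1.46 and 38.4 in pepper:tomato, and 1.66, 29.9 and 3.32 in tomato:pepper. After the exchange it would have 119, 29.9 and 38.4 FPKM in pepper:tomato. CA03g15880, the ERF target that fell most in tomato:pepper, had 12.2, 1.87 and 5.30 FPKM there (1.71 at 3 DAG with the exchange) and 94.6, 4.96 and 36.2 in the self-graft.

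Of the MYC2 targets, CA11g19650 rose most in pepper:tomato, with 1.94, 61.2 and 15.8 FPKM (48.5 at 3 DAG with the exchange), beside 7.29, 116 and 32.1 in the self-graft. CA12g01260 fell most there, with 14.3, 2.61 and 14.4 FPKM (30.7 exchanged) beside 5.83, 40.3 and 13.6. In tomato:pepper CA01g23350 rose most, with 10.2, 492 and 6.73 FPKM (102 exchanged) beside 67.4, 651 and 348 in the self-graft.

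CA03g27160, a target of both MYC2 and NGAL1-like, fell most in tomato:pepper in both lists, with 128, 4.30 and 240 FPKM, and 129 in place of 4.30 with the exchange. Of the NGAL1-like targets, CA02g18250 rose most in pepper:tomato, with 5.49, 415 and 13.3 FPKM, and had 27.9, 1.98 and 1573 in tomato:pepper, so that the exchange gives 5.49, 1.98 and 13.3 in the former. CA04g20280 rose most in tomato:pepper, with 46.9, 6302 and 360 FPKM (4019 exchanged), beside 51.9, 10365 and 11700 in the self-graft. CA09g02750 fell most in pepper:tomato, with 37.4, 18.0 and 80.1 FPKM (125 exchanged).

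At 3 over 1 and 5 over 1 DAG, the pepper orthologs of cambium and xylem genes named by the study were mostly within the threshold. Of 31 genes, 28 were expressed in pepper:tomato, where at 3 over 1 DAG 2 rose and 10 fell (median -0.57 beside -0.84 over all genes), and 27 in tomato:pepper, where 7 rose and 2 fell (0.35 beside 0.67). With the exchange these medians were -1.03 beside -0.48 and 0.39 beside 0.28. The shares of all genes that rose and fell in the heterografts are those given for the MYC2 targets. At 5 over 1 DAG, 0 rose and 3 fell in pepper:tomato (-0.34 beside -0.18) and 6 rose and 2 fell in tomato:pepper (0.31 beside 0.21). In the self-graft these counts were 2 and 6 of 30 at 3 over 1 DAG and 2 and 2 at 5 over 1 DAG. At 5 over 3 DAG most orthologs were past the threshold in tomato:pepper, where 10 of 27 rose and 8 fell (median -0.10 beside -0.48). Of all expressed genes 13.0% rose and 28.8% fell there. In pepper:tomato 6 of 28 rose and 0 fell (0.44 beside 0.66), where 35.7% of all genes rose and 5.13% fell. With the exchange these medians were 0.25 beside -0.03 and 0.41 beside 0.29.

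Among 17998 pepper genes that reached 1 FPKM in some group, the pattern of the ERF genes was common and that of MYC2 rare. Pearson's r over the 9 groups passed 0.9 for 2752 genes with CA01g01830 (15.3%), 1919 with CA01g01880 (10.7%), 256 with HD-ZIP14 (1.42%), 85 with NGAL1-like (0.472%) and 63 with MYC2 (0.350%). Nearest to CA01g01830 were CA04g05270 and CA03g01310 (r = 0.996 and 0.995), and nearest to CA01g01880 were CA01g33060 and CA01g30340 (0.995 and 0.992). Nearest to HD-ZIP14 were CA02g30330 and CA03g08360 (0.986 and 0.981), and nearest to NGAL1-like CA01g21020 and CA01g17970 (both 0.989). CA08g14780 was near to MYC2 (0.972), with 1.08, 0.273 and 1.25 FPKM in tomato:pepper. CA01g19800 was nearer (0.985) in pepper-scaled FPKM, but r was 0.523 on deposited FPKM, at which it ranged from 324 to 1172.

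The ERF genes are 5 places apart by identifier, and the 4 measured genes numbered between them never exceeded 0.375 FPKM in any of the 9 groups. CA01g01890, the next number above the pair, had 7.88, 3.19 and 5.50 FPKM in the self-graft, 5.87, 1.20 and 4.47 in pepper:tomato, and 1.02, 1.32 and 1.77 in tomato:pepper. CA01g01820, the next below, had 12.8, 10.3 and 10.9 in the self-graft and 3.43, 5.43 and 3.40 in tomato:pepper. Beside NGAL1-like, CA01g00070 had 60.4, 116 and 76.3 FPKM in the self-graft and 26.1, 54.5 and 12.0 in tomato:pepper, and CA01g00050 was listed at 0 in every group. Below MYC2, CA01g00270 had 0.523, 0.942 and 2.39 FPKM in tomato:pepper, and CA01g00290 above it did not exceed 0.0329. Around HD-ZIP14, CA10g19200 fell from 10.8 to 1.94 FPKM between 1 and 3 DAG in the self-graft and CA10g19220 had 3.78 and 1.56, where HD-ZIP14 rose. Neighbours by number are named as such only, since positions on the chromosome were not used here.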

How the data were processed

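Groups were taken from the sample titles. The deposited tables hold FPKM that the authors made with TuxNet at default settings (trimming with fastq-mcf, alignment with hisat2, quantification with Cufflinks) against the pepper genome CM334 for self-grafts and against CM334 joined with tomato ITAG3.2 for heterografts, with 1 value per group of 4 samples. Versions of these tools are not given in the sources used here. The deposited tables also hold log2 fold changes between time points, with a code where a group is at 0, and q-values (FDR), both computed by the authors over the replicates. Neither was used. The tomato self-graft (12 samples) was not used.

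Pepper rows were matched by identifier before any dot. Log2 ratios used a pseudocount of 1 FPKM, a gene counted as expressed if any of the 3 groups of a graft had 1 FPKM or more (for heterografts compared with each other, of either graft), and values of 1 or more in size were called. A change of less than 0.5 on the log2 scale between settings counts as the same, since no replicate spread is known. Alternatives were pseudocounts of 0.1, 5 and 0 FPKM, filters of none or 5 FPKM, a threshold of 2, pepper rescaled to its own total (1000000), centring on the median of expressed pepper genes, and the 3 DAG heterograft values exchanged. The exchange together with rescaling, and likeness without the heterografts at 3 DAG, were chosen after seeing the data.

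Genes named are the members, 6 further network genes of the study (LBD18, MYB86, LBD4, LBD25, XTH22, XTH38), for each member the 2 pepper genes with the highest Pearson's r over 9 groups of log2(pepper-scaled FPKM + 1) and its neighbours by number, and of each target list the gene with the largest rise and the largest fall at 3 over 1 DAG in each heterograft at 10 FPKM or more (the first of 3 listed). Targets came from the study's self-graft network. The members and lists were chosen with earlier results of these data known. A list of pathway genes could not be used, because 0 pepper identifiers matched the reference table. The counting, rescaling, exchange and likeness steps were tested on simulated data. Python 3.11.15, pandas 2.3.3, numpy 2.4.6 and matplotlib 3.10.9 were used.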

Additional observations from a re-analysis of the deposited data

Results flagged for a closer look

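MYC2 went past the threshold one way in tomato:pepper and the other way in other grafts, in 3 pairs of values. At 3 over 1 DAG its log2 fold change was -1.95 in tomato:pepper and 1.63 in the self-graft. At 5 over 3 DAG it was 2.42 in tomato:pepper, -1.37 in the self-graft and -1.06 in pepper:tomato. These differences were not tested, since each group has 1 pooled value. All use the heterografts at 3 DAG, where the order of the pepper shares is turned around. With these exchanged, MYC2 in tomato:pepper was at -0.89 and 1.36, and in pepper:tomato at 0.00 for 5 over 3 DAG.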

How the results depend on the processing

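No paired analysis was possible because each group has 1 pooled value, and leaving out replicates could not be run for the same reason. Fold changes of genes near 1 FPKM depend on the pseudocount, the depth is unknown, and no value has an error. Of 265 member log2 fold changes under alternatives, 153 stayed within 0.5, 110 moved further and 2, which had been past the threshold, turned their sign, both MYC2 at 5 over 3 DAG in pepper:tomato, which was at 0.0011 with 3 DAG exchanged and at 0.045 when also rescaled. Counting values within the threshold too, 20 of the 265 changed sign, of which 5 with the exchange, 6 with exchange and rescaling, 5 with centring and 4 with rescaling. Of 30 likeness values 29 stayed within 0.1.

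The number of members following the self-graft moved as follows. With a pseudocount of 5 or a threshold of 2 it was 0 in every comparison of both heterografts in which it had been above 0. In pepper:tomato at 5 over 1 DAG (1) it was 4 with a pseudocount of 0.1 or none and 0 with centring. In pepper:tomato at 5 over 3 DAG (1) it was 2 with a pseudocount of 0.1 or none and 0 with rescaling, exchange or both. In tomato:pepper it fell from 1 to 0 at 3 over 1 DAG with rescaling, centring, exchange or exchange with rescaling, and at 5 over 1 DAG with centring. Members past 1 between heterografts numbered 0 at 1, 3 and 5 DAG with a pseudocount of 5, were 1, 0 and 1 with a threshold of 2, and 5 at 5 DAG with a pseudocount of 0.1.

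Medians of the target lists moved by over 0.5 in these cases. For the ERF targets, centring gave -1.46 and 0.76 at 3 over 1 and 5 over 3 DAG in pepper:tomato and -0.46 at 3 over 1 DAG in tomato:pepper, where rescaling gave -0.40. At 5 over 3 DAG in tomato:pepper, rescaling gave 0.94 and exchange with rescaling 0.69. For the MYC2 targets in pepper:tomato, centring gave 1.96 and -0.86 and exchange 1.84 and -0.89 at 3 over 1 and 5 over 3 DAG. In tomato:pepper at 3 over 1 DAG, rescaling gave 0.48, centring 0.76, exchange 0.85 and both together 0.46, and at 5 over 3 DAG rescaling gave -0.69, exchange -0.78 and both together -0.39. For the NGAL1-like targets in pepper:tomato, centring gave 2.51 and -1.21, exchange 0.75 and 0.37, and exchange with rescaling 0.51 and 0.65 at 3 over 1 and 5 over 3 DAG. In tomato:pepper, rescaling gave 0.13 and centring 0.52 at 3 over 1 DAG, and rescaling 1.59 and exchange -0.087 at 5 over 3 DAG.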
